A study of Mus musculus with 16 samples.

Results

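Mouse chromosome 5 was followed as a unit, gene by gene, in sorted cells of intestinal tumours. Its members were all genes that the RefSeq table of GRCm38.p6 places on this chromosome and whose mean over the 16 libraries was 8 CPM (counts per 1000000 counts of a library) or more. That left 731 of the 1822 genes placed on it, of 36528 gene IDs in the files, and 9982 genes on the other autosomes passed the same limit. The members comprised 717 protein-coding genes, 10 lncRNA genes, 2 transcribed pseudogenes and 2 miRNA genes, and all 731 passed the low-count filter of the tests. Nearest the limit, Mir703 (8.19 CPM) and Muc3a (8.27 CPM) lay inside and Oas1b (7.97 CPM) and Rpl9 (7.99 CPM) outside. The chromosome was picked because its RNA differed between the genotypes, so every difference between AKVPSL and AKVPL is given as a description. Counts of members past a test's threshold between the genotypes stand only beside their background.

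The study sorted cells from mouse tumours of 2 genotypes, AKVPL and AKVPSL, by green fluorescent protein, and sequenced the RNA of GFP+ and GFP- cells in 4 libraries for each of the 4 combinations. The labels do not spell out the letters of the genotypes, and the series names the sorted populations as Lgr5+ and Lgr5- tumour cells. They do not say whether the 4 libraries of a group came from separate tumours, animals or cell lines. P-values therefore measure the spread between libraries only, and genotype cannot be told apart from the origin of the tumour cells. The labels disagree on the organ: every title says colon, but 15 of 16 tissue entries read small intestine, the remaining one being AKVPSL GFP- replicate 1.

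An extra copy of a chromosome raises the template for all of its genes at once, and the RNA of most of them tends to follow the dose, while single genes can be held back or pushed further by their own regulation. A shift shared by genes along a whole chromosome is therefore a common way to look for copy number in expression data. Gains and losses of whole chromosomes are frequent in colorectal tumours, and cultured mouse tumour lines can carry their own. No DNA was measured here, so copy number itself cannot be read from these files.

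The 16 libraries held 10.9 to 41.6 M counts (M, 1000000), with a median of 25.9 M. Lgr5, the receptor that names the sort, ranged from 247 to 345 CPM in the AKVPL GFP+ libraries and from 253 to 283 CPM in the AKVPSL GFP+ libraries. It ranged from 48.3 to 89.7 CPM over the GFP- libraries of both genotypes, so the sorts did not overlap. Summed over 14 epithelial markers, every library held 8326 to 11738 CPM. In AKVPL the GFP+ libraries held more (10256 to 11738 CPM) than the GFP- libraries (8326 to 9693 CPM). In AKVPSL the order was the reverse, with 9637 to 10053 CPM in GFP+ and 10901 to 11337.5 CPM in GFP-. Summed over 10 fibroblast markers, the AKVPL GFP- libraries held 3715 to 8065 CPM and the AKVPSL GFP- libraries 1180 to 2446 CPM, against 179 to 1118 CPM in the GFP+ libraries. Summed over 10 leukocyte markers, the corresponding ranges were 3643 to 6720, 665 to 2832 and 44.8 to 1026 CPM. None of the fibroblast, endothelial or leukocyte markers was at 0 in all libraries, and Cd3e was below 1 CPM. In bulk samples, fewer cells of a type and less RNA per cell cannot be told apart.

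Sequences upstream of 4 members were read from the RefSeq promoter table (GRCm38.p6), which held a window of 300 bases for 622 of the 731 members. They are shown because these members stand for the patterns of the chromosome: Suds3, a subunit of the SIN3 histone deacetylase complex, lay close to its median difference, Oas3 and Oasl2 were among its interferon-induced members that differed the other way, and Cxcl15, a CXC chemokine, had its largest difference in the direction of the chromosome. Each runs 5′ to 3′ up to the base before the annotated start of the gene. Capitals mark matches, on either strand, to the interferon-stimulated response element core (GAAA, any 2 bases and GAAA again), the GC box GGGCGG or the TATA box TATAAA. The Suds3 sequence (chr5:117115994-117116243, minus strand) holds a GC box on the other strand, that of Oas3 (chr5:120777685-120777909, minus strand) an interferon element 50 bases before the gene start, that of Oasl2 (chr5:114896684-114896925, plus strand) a TATA box on the other strand, and that of Cxcl15 (chr5:90794284-90794533, plus strand) a TATA box.
Suds3: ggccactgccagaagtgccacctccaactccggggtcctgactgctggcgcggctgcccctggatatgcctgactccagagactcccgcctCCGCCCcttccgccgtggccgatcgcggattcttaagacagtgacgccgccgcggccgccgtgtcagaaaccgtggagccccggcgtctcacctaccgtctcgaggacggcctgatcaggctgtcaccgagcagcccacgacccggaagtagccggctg
Oas3: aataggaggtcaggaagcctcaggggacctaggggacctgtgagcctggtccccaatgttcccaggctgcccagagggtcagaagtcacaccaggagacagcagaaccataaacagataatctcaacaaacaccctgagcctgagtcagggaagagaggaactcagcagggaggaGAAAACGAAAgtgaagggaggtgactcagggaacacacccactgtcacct
Oasl2: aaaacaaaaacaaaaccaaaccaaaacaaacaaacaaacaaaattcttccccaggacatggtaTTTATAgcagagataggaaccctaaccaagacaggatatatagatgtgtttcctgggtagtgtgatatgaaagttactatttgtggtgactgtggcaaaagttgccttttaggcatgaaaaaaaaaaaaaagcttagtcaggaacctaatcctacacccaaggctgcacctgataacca
Cxcl15: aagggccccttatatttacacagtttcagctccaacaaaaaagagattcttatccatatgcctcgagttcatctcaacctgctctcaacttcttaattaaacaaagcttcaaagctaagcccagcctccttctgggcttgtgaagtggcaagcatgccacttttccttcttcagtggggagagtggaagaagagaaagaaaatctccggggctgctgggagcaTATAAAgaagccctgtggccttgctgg

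Over all 27025 promoter windows of the table, 3.48% held the interferon element, 35.9% the GC box and 14.2% the TATA box. Of the 622 member windows, 18 (2.89%) held the interferon element, 437 (70.3%) the GC box and 33 (5.31%) the TATA box. Members were limited to expressed genes and the windows of the whole table were not, so these shares are not like for like. The interferon element was found in 3 of the 5 Gbp and Oas members with a window. A match is a description of the letters only.

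The RNA of chromosome 5 was higher in AKVPSL than in AKVPL cells in both sorts. The median member differed from the median of the other autosomal genes by 0.55 (log2 of CPM + 0.5, AKVPSL minus AKVPL) in GFP+ cells, a fold of 1.47. In GFP- cells the same shift was 0.54, a fold of 1.45. Between the sorts (GFP+ minus GFP-) the same measure was -0.01 in AKVPL and 0.00 in AKVPSL.

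An index per library shows the value behind these medians. It is the median, over members, of each gene's log2 level minus that gene's mean over the 16 libraries, set against the same median over the other autosomal genes. The index was -0.28, -0.27, -0.26 and -0.27 in AKVPL GFP+ replicates 1 to 4 and -0.28, -0.27, -0.28 and -0.26 in AKVPL GFP- replicates 1 to 4. It was 0.28, 0.24, 0.30 and 0.29 in AKVPSL GFP+ and 0.27, 0.23, 0.25 and 0.30 in AKVPSL GFP-. All 8 AKVPSL libraries lay above all 8 AKVPL libraries, and within a genotype the sorts overlapped. The spread within a group was small, with an SD of 0.01 in both AKVPL groups, 0.02 in AKVPSL GFP+ and 0.03 in AKVPSL GFP- (n = 4 each).

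**Figure D1:**
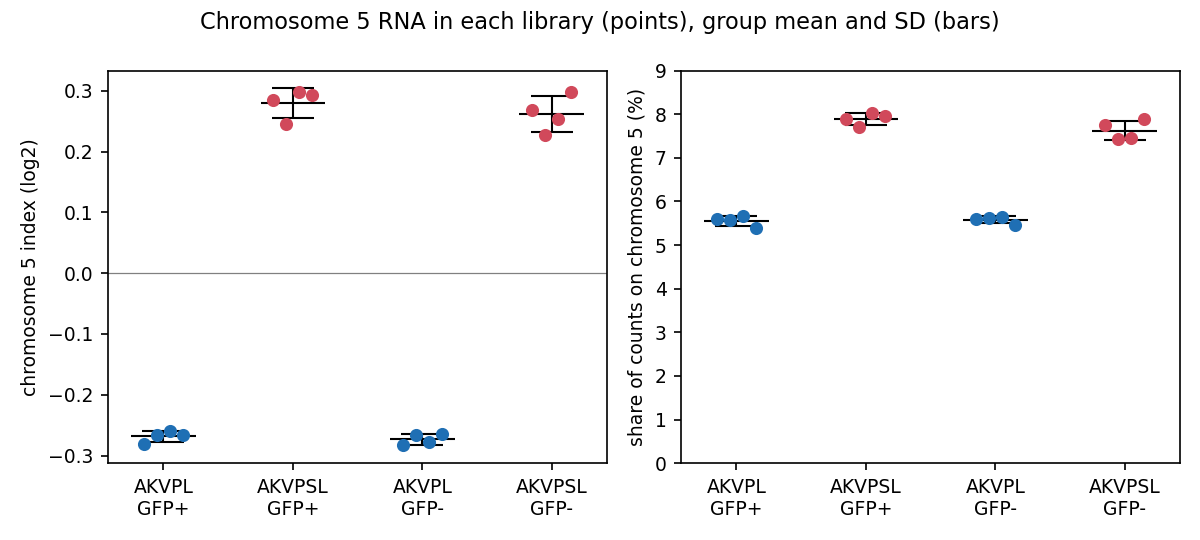
Chromosome 5 index (left, log2) and share of each library's counts that fell on the chromosome (right, percent) for the 4 libraries of each group, with the group mean and SD as black bars. The AKVPL libraries lie between -0.28 and -0.26 and the AKVPSL libraries between 0.23 and 0.30, with no overlap.

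The share of all counts that fell on the chromosome moved in the same direction. It was 5.55 ± 0.116% (SD, n = 4) in AKVPL GFP+ and 5.58 ± 0.0805% in AKVPL GFP- cells. In AKVPSL it was 7.89 ± 0.136% in GFP+ and 7.62 ± 0.224% in GFP- cells. The lowest AKVPSL library held 7.42% and the highest AKVPL library 5.66%.

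Chromosome 5 had the largest of the 19 autosomal shifts in both sorts, but it was not alone. The other 18 ranged from -0.26 to 0.53 in GFP+ and from -0.28 to 0.51 in GFP-, and 7 of 18 lay above 0 in each sort. Chromosome 18 came closest, with 0.53 and 0.51 over 310 genes. Chromosomes 15 (0.40 and 0.35, 457 genes) and 12 (0.35 and 0.36, 386 genes) followed. Next were chromosomes 6 (0.32 and 0.25), 19 (0.28 and 0.22) and 8 (0.23 and 0.17), with chromosome 3 near 0 (0.04 and 0.01). Set against autosomes other than 5, 12, 15 and 18, which still included 6, 8 and 19, the chromosome 5 shift was 0.59 in GFP+ and 0.58 in GFP-.

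**Figure D2:**
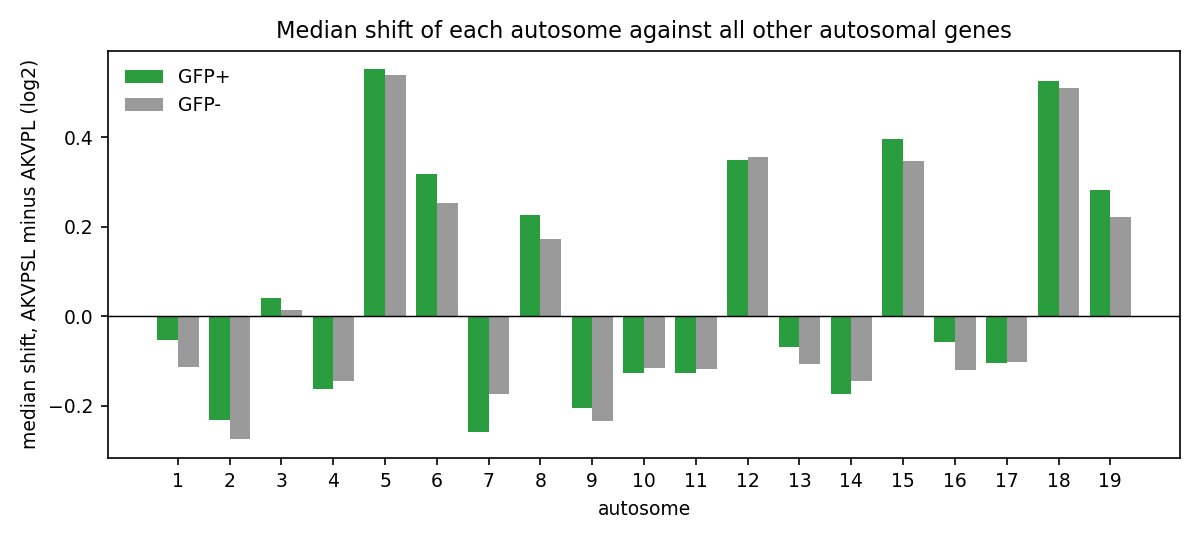
Median shift of each autosome (AKVPSL minus AKVPL, log2), each against the genes of all other autosomes, in GFP+ (green bars) and GFP- cells (grey bars). Chromosome 5 has the highest bars, 0.55 and 0.54, and chromosome 18 the next, 0.53 and 0.51.

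The shift ran along the chromosome, through every bin with enough members. Of the 16 bins of 10 Mb, counted from the chromosome start, 14 held 10 members or more, and all 14 were above 0 in both sorts. Their median shift ranged from 0.48 to 0.76 in GFP+ and from 0.32 to 0.83 in GFP- cells. Among the bins with the most members, bin 14 (130 to 140 Mb, 105 members) had 0.51 and 0.52, bin 13 (99 members) 0.60 and 0.56, and bin 4 (30 to 40 Mb, 87 members) 0.49 and 0.43.

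The outermost bins used, 1 and 15, both lay above 0. Bin 1, with 25 members, had shifts of 0.69 in GFP+ and 0.82 in GFP-. Nearest the bin median was Rbm48, an RNA-binding protein gene of the minor spliceosome, with differences of 0.68 and 0.87 relative to the other autosomes. Bin 15 (140 to 150 Mb, 73 members) had 0.48 and 0.50. There, Gtf3a, the factor that starts 5S ribosomal RNA transcription, differed by 0.51 and 0.53, and Kdelr2, a receptor that returns proteins to the endoplasmic reticulum, by 0.64 and 0.52.

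In 13 of the 14 bins the bin index of every AKVPSL library lay above that of every AKVPL library. The exception was bin 9 (80 to 90 Mb, 12 members), where AKVPL ranged from -0.50 to -0.05 and AKVPSL from -0.10 to 0.36. Its shifts were 0.67 in GFP+ and 0.32 in GFP-. Uba6, a ubiquitin-activating enzyme, and Dck, the deoxycytidine kinase, stood nearest its median, with 0.61 and 0.33 for Uba6 and 0.61 and 0.31 for Dck. Bins 2 (10 to 20 Mb) and 16 (from 150 Mb) held 5 and 7 members and were not used. Bins of 20 Mb gave lowest values of 0.49 (GFP+) and 0.39 (GFP-), and bins of 5 Mb 0.30 and 0.15. With either size, every bin of 10 members or more was above 0.

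**Figure D3:**
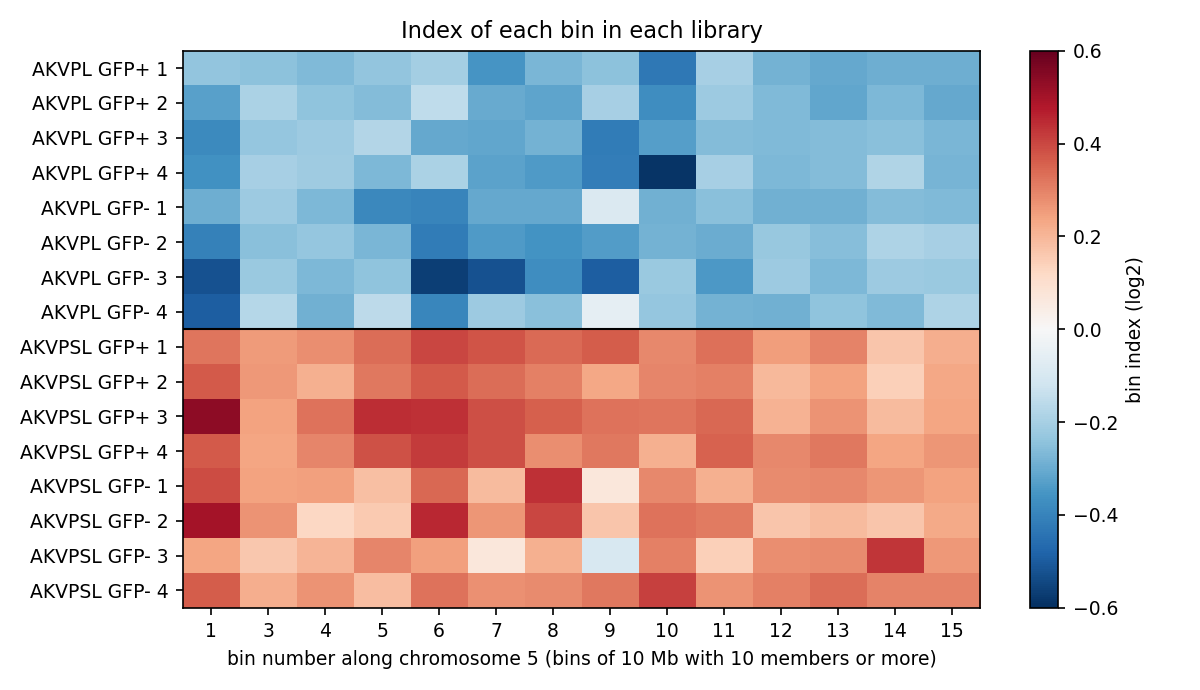
Index of the 14 bins of 10 Mb with 10 members or more (columns, numbered from the chromosome start) in each of the 16 libraries (rows), blue below and red above the gene means. The 8 AKVPL rows are blue and the AKVPSL rows red across the bins drawn, apart from bin 9 in AKVPSL GFP- replicate 3.

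Single members scattered around this shift. Relative to the median of the other autosomal genes, 624 members (85.4%) were higher in AKVPSL in GFP+ cells and 575 (78.7%) in GFP- cells. Over both sorts, 550 members (75.2%) were higher in both, 82 lower in both and 99 mixed. Of the 9982 other autosomal genes, 3840 (38.5%) were higher in both, 3840 lower in both and 2302 mixed. These genes are set against their own median, so the equal counts higher and lower are fixed by the measure. The quartiles of the members were 0.28 and 0.81 in GFP+ and 0.09 and 0.95 in GFP-. The distance between them was 0.53 in GFP+ and 0.86 in GFP-, against 0.69 and 0.93 for the other autosomal genes. The differences in GFP+ and GFP- cells went together across the 731 members (Pearson r 0.86, Spearman rho 0.69), as they did across the 9982 other autosomal genes (0.84 and 0.75). These are correlations across genes, which are not independent replicates.

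**Figure D4:**
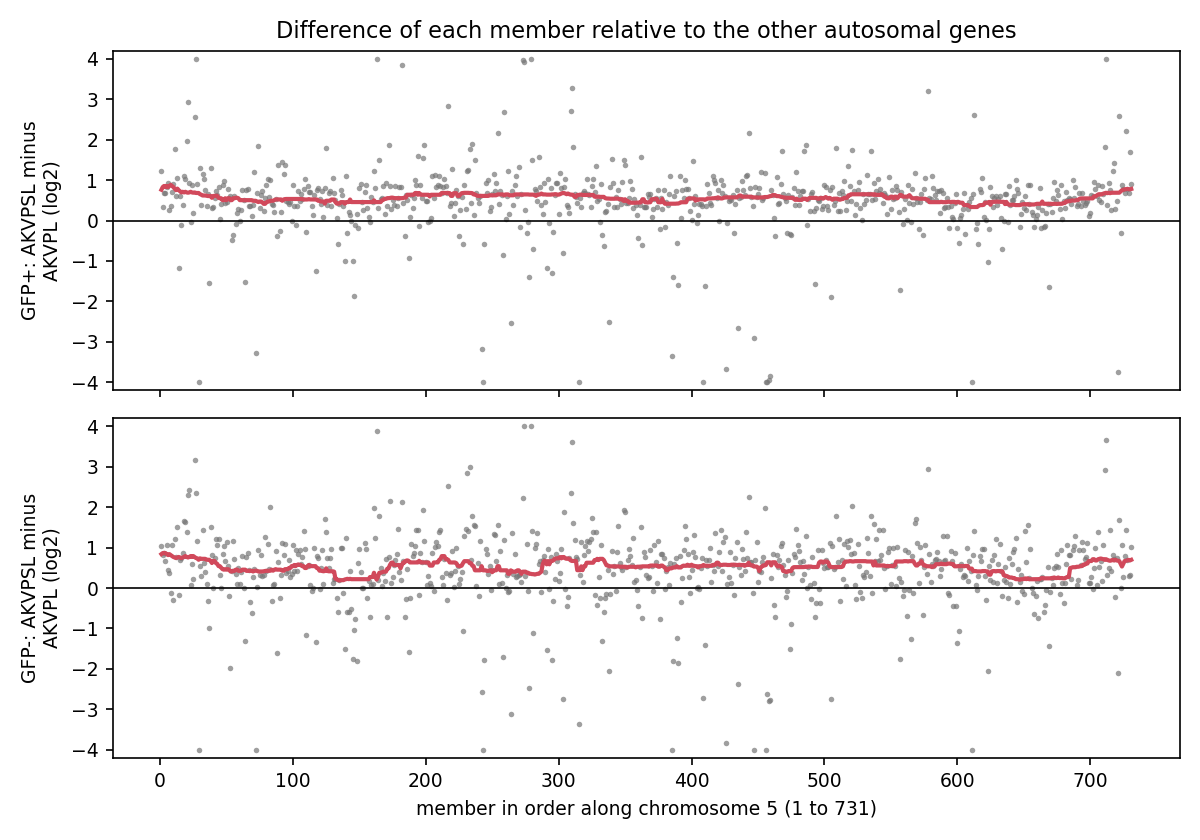
Difference of each member (AKVPSL minus AKVPL, log2, relative to the other autosomal genes) in order along the chromosome, in GFP+ (top) and GFP- cells (bottom), with the running median over 51 members in red. Values past the axis limits of 4 and -4 (11 in GFP+, 9 in GFP-) are drawn at the limit. The running median stays above 0, from 0.33 to 0.88 in GFP+ and from 0.19 to 0.87 in GFP-.

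In the counts behind edgeR's quasi-likelihood test with Benjamini-Hochberg adjustment (threshold 0.05), 591 members were called between AKVPSL and AKVPL in GFP+ cells, 539 of them higher and 52 lower. Over all 18072 genes tested 53.0% were called. Of the other autosomal genes with 8 CPM or more 54.5% were called, 28.5% higher and 26.0% lower. In GFP- cells 569 members were called, 501 higher and 68 lower. The background there was 62.7% of all genes and 66.6% of the other autosomal genes, 38.8% higher and 27.8% lower. Size factors from epithelial marker genes gave 354 members higher and 129 lower in GFP-. The background shares were not computed under that scaling. The chromosome was chosen on this comparison, so nothing is read from the counts, or from those of the gene lists that follow.

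The shift was of similar size in weakly and strongly expressed members. In the lowest, middle and highest tertile of members by mean CPM it was 0.51, 0.54 and 0.55 in GFP+ and 0.47, 0.54 and 0.54 in GFP-. By gene length the tertiles gave 0.52 to 0.57 in GFP+ and 0.49 to 0.55 in GFP-. By promoter CpG content (observed over expected CpG in the window) they gave 0.55 to 0.59 in GFP+ and 0.48 to 0.62 in GFP-. The 416 members whose sort effect was within 0.5 of 0 in both genotypes had shifts of 0.53 and 0.55. Each value is set against other autosomal genes of the same class.

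Levels of single genes are given from here on as CPM with TMM-scaled libraries, and their differences as edgeR log2 fold changes ± SE, n = 4 libraries per group. On this scale the median of the other autosomal genes was 0.02 for AKVPSL against AKVPL in GFP+ and 0.10 in GFP-. Tyw1, Suds3 and Anapc5 were chosen after their values were seen, as members near the median of the chromosome in both sorts.

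Tyw1 (chr5:130255572-130341568) makes the wybutosine base of phenylalanine tRNA. It stood at 38.3, 33.5, 34.9 and 37.5 CPM in the AKVPL GFP+ libraries and 57.3, 49.6, 54.9 and 53.1 CPM in the AKVPSL GFP+ libraries. In GFP- cells it stood at 29.5, 28.7, 30.5 and 25.9 CPM in AKVPL and 48.2, 37.8, 45.5 and 48.2 CPM in AKVPSL. Neither sort had an AKVPSL library within the AKVPL range, and the differences were 0.58 ± 0.09 in GFP+ and 0.65 ± 0.10 in GFP-. Suds3 (chr5:117091678-117115993), whose upstream sequence is shown above, stood at 125, 128, 122 and 132 CPM in the AKVPL GFP+ libraries and 196, 186, 188 and 186 CPM in the AKVPSL GFP+ libraries. The GFP- values were 113, 122, 116 and 106 CPM in AKVPL and 165, 136, 215 and 189 CPM in AKVPSL. The AKVPSL GFP- libraries spread more widely, from 136 to 215 CPM, but again none overlapped with AKVPL. The differences were 0.58 ± 0.11 and 0.63 ± 0.11.

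Genes of the cell cycle and DNA replication were for the most part higher in AKVPSL. Of the 21 members of this list, 19 were called higher in AKVPSL GFP+ and all 21 in AKVPSL GFP- cells, and none lower. Their median differences were 0.72 and 1.12, against 0.58 and 0.64 over all members. The shares of all members called higher were 73.7% in GFP+ and 68.5% in GFP-. Anapc5 (chr5:122787459-122822339), a subunit of the anaphase-promoting complex that marks mitotic proteins for destruction, stood at 228, 243, 228 and 235 CPM in the AKVPL GFP+ libraries and 341, 333, 345 and 358 CPM in the AKVPSL GFP+ libraries. The AKVPSL GFP+ libraries lay within a narrow band well above those of AKVPL, and the differences were 0.56 ± 0.09 in GFP+ and 0.62 ± 0.09 in GFP-. Cdk6 (chr5:3341004-3531008), the kinase that D-type cyclins activate in G1, stood at 79.1, 79.5, 81.7 and 70.5 CPM in the AKVPL GFP+ libraries and 172, 161, 221 and 193 CPM in the AKVPSL GFP+ libraries. Every AKVPSL library was at least 161 CPM and every AKVPL library at most 81.7 CPM, a difference of 1.27 ± 0.10, larger than that of the median member. In GFP- cells Cdk6 differed by 1.14 ± 0.10. Ran, the GTPase of nuclear transport and spindle assembly, differed by 0.97 ± 0.11 in GFP+ and 1.69 ± 0.11 in GFP-. Rfc2, a subunit of the clamp loader of DNA replication, differed by 0.58 ± 0.11 and 1.04 ± 0.11.

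All 11 members of the protein synthesis list were called higher in AKVPSL in both sorts, with median differences of 0.86 and 1.03 against 0.58 and 0.64 over all members. Over all members, 73.7% were called higher in GFP+ and 68.5% in GFP-. The shares of the other autosomal genes were 28.5% and 38.8%. Eif3b (chr5:140419305-140443358), a scaffold subunit of initiation factor eIF3, stood at 353, 383, 376 and 344 CPM in the AKVPL GFP+ libraries and 716, 644, 681 and 674 CPM in the AKVPSL GFP+ libraries. The groups lay far apart, and the differences were 0.90 ± 0.11 in GFP+ and 1.08 ± 0.11 in GFP-. Eif2b1, a subunit of the factor that recharges eIF2 with GTP, had differences of 1.79 ± 0.10 and 2.14 ± 0.10. Rplp0, an acidic protein of the large ribosomal subunit, differed by 0.54 ± 0.12 and 0.99 ± 0.12. Ribosomal protein genes have near-identical pseudogenes that can take unique reads away, so the level of Rplp0 is uncertain.

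Of the 17 members of metabolism and mitochondria, 11 were called higher and 1 lower in each sort. Over all members, 73.7% were called higher in GFP+ and 68.5% in GFP-. The medians of the list were 0.51 and 0.65, near the 0.58 and 0.64 over all members. With size factors from epithelial markers the GFP- counts of the list were 8 and 3, with a median of 0.26. Under that scaling the GFP- median was 0.26 over all members too, and -0.28 over the other autosomal genes. Mdh2 (chr5:135778649-135790386), the mitochondrial malate dehydrogenase, stood at 301, 308, 317 and 302 CPM in the AKVPL GFP+ libraries and 561, 572, 457 and 481 CPM in the AKVPSL GFP+ libraries. Its GFP+ groups did not overlap, with a difference of 0.75 ± 0.11, and in GFP- it was 0.99 ± 0.11. Aldh2, which clears acetaldehyde, differed by 0.92 ± 0.10 and 1.16 ± 0.10, and Por, the reductase that feeds electrons to cytochrome P450 enzymes, by 0.66 ± 0.13 and 0.80 ± 0.13.

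For chromatin and transcription, 19 of 24 members were called higher and 1 lower in GFP+, but 12 higher and 2 lower in GFP- cells, with medians of 0.54 and 0.25. Over all members, 73.7% were called higher in GFP+ and 68.5% in GFP-, with medians of 0.58 and 0.64. With size factors from epithelial markers the GFP- counts of the list were 8 higher and 6 lower and its median turned to -0.14. That scaling moved all genes, with a GFP- median of -0.28 over the other autosomal genes and 0.26 over all members. Baz1b, a bromodomain protein of chromatin remodelling complexes, differed by 0.54 ± 0.09 and 0.44 ± 0.09. Gtf2i, a general transcription factor of the TFII-I family, differed by 0.74 ± 0.11 in GFP+ and 0.26 ± 0.11 in GFP-, where the groups overlapped and size factors from epithelial markers gave -0.13. The member that was lower in both sorts was Tbx3, a T-box repressor, at 112 ± 14.7 CPM (SD) in AKVPL GFP+ and 14.6 ± 2.48 CPM in AKVPSL GFP+. It differed by -2.94 ± 0.19 in GFP+ and by -4.55 ± 0.21 in GFP-. In GFP- cells fibroblast and leukocyte marker levels also differed between the genotypes, as given above, and their part in these differences was not tested.

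Among 22 members of signalling and the cytoskeleton, 18 were called higher and 1 lower in GFP+, and 14 higher and 2 lower in GFP-, with medians of 0.66 and 0.43. Over all members, 73.7% were called higher in GFP+ and 68.5% in GFP-. With size factors from epithelial markers the GFP- counts of the list were 7 higher and 5 lower, with a median of 0.04. The same scaling gave GFP- medians of 0.26 over all members and -0.28 over the other autosomal genes. Rac1 (chr5:143505481-143528031), a GTPase that drives actin at the cell edge, stood at 196, 217, 214 and 179 CPM in the AKVPL GFP+ libraries and 389.8, 372, 360.0 and 368 CPM in the AKVPSL GFP+ libraries. All AKVPSL values exceeded all AKVPL values, with differences of 0.89 ± 0.09 in GFP+ and 1.04 ± 0.09 in GFP-. Actb, cytoplasmic actin and a frequent reference gene, was also on the chromosome and differed by 0.40 ± 0.14 and 0.62 ± 0.14. Its GFP+ groups overlapped, with 1172 to 1861 CPM in AKVPL and 1781 to 2150.5 CPM in AKVPSL.

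Members of epithelial identity and the cell surface were higher for the most part, with medians of 0.99 and 0.76. In GFP+ cells 10 of 12 were called higher and 1 lower, and in GFP- cells 7 higher and 2 lower. Over all members, 73.7% were called higher in GFP+ and 68.5% in GFP-. Cdx2 (chr5:147300900-147307249), the homeobox factor that specifies intestinal epithelium, stood at 1.35, 1.89, 1.29 and 1.38 CPM in the AKVPL GFP+ libraries and 42.6, 39.8, 31.6 and 46.6 CPM in the AKVPSL GFP+ libraries. In GFP- cells it stood at 1.17, 3.90, 1.69 and 1.44 CPM in AKVPL and 34.5, 26.7, 30.8 and 33.7 CPM in AKVPSL. It stayed at or below 3.90 CPM in all AKVPL libraries and at or above 26.7 CPM in all AKVPSL libraries, with differences of 4.75 ± 0.28 and 3.90 ± 0.28, far above the shift of the chromosome. Abcb1a, a drug efflux pump, differed by 3.02 ± 0.20 and 2.41 ± 0.19. Cldn3, a tight junction claudin, differed by 1.20 ± 0.11 and 1.72 ± 0.12. Its neighbour Cldn4, the member of this list with the most counts, had overlapping groups and differed by 0.34 ± 0.22 and -0.07 ± 0.22.

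**Figure D5:**
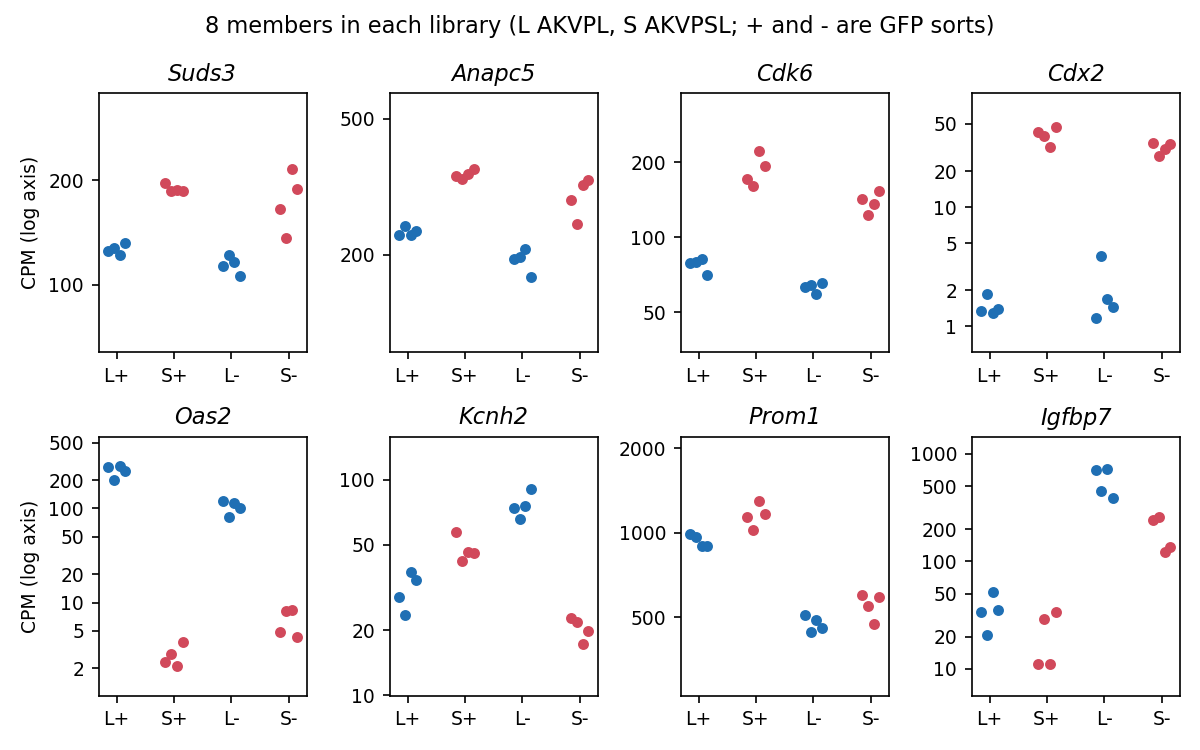
CPM (log axis, TMM-scaled) of 8 members in each of the 16 libraries, 4 points per group, AKVPL in blue and AKVPSL in red. Suds3, Anapc5 and Cdk6 are higher in AKVPSL in both sorts, Cdx2 far higher and Oas2 far lower, Kcnh2 changes order between the sorts, and Prom1 and Igfbp7 separate the sorts.

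Growth factor receptors and ligands went both ways. Of 9 members, 5 were called higher and 2 lower in each sort. With size factors from epithelial markers 3 were higher and 4 lower in GFP-. Without that scaling, 73.7% of all members were called higher and 7.11% lower in GFP+, and 68.5% and 9.30% in GFP-. Kit (chr5:75574987-75656722), the receptor of stem cell factor, stood at 61.3, 66.0, 73.2 and 67.1 CPM in the AKVPL GFP+ libraries and 2.77, 3.15, 3.50 and 3.41 CPM in the AKVPSL GFP+ libraries. In GFP- cells it stood at 109.8, 103, 116 and 131 CPM in AKVPL and 6.09, 5.68, 5.32 and 6.21 CPM in AKVPSL. Each AKVPL library was far above every AKVPSL library of its sort, with differences of -4.39 ± 0.11 and -4.30 ± 0.11. Slit2, a secreted guidance ligand of ROBO receptors, was higher by 3.98 ± 0.24 in GFP+ and 2.26 ± 0.23 in GFP-. Flt1, a receptor of VEGF, was higher by 0.97 ± 0.16 and 0.59 ± 0.16, and Ephb4, a receptor of ephrin-B2, by 0.70 ± 0.13 and 0.43 ± 0.13. Pdgfa, a platelet-derived growth factor chain, had overlapping groups and differed by -0.04 ± 0.13 and -0.14 ± 0.13.

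Of the 4 ERBB ligands on the chromosome, Areg and Btc passed the CPM limit. Btc stood at 42.6, 42.9, 40.6 and 35.8 CPM in the AKVPL GFP+ libraries and 57.1, 59.2, 56.3 and 56.5 CPM in the AKVPSL GFP+ libraries, with differences of 0.50 ± 0.11 in GFP+ and 1.49 ± 0.11 in GFP-. Areg varied from 32.5 to 142 CPM within AKVPL GFP+ alone, and its differences were 0.52 ± 0.38 and 1.13 ± 0.38.

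The CXC chemokine cluster had 7 of its 11 genes among the members, of which 2 were called higher and 2 lower in GFP+ and 3 higher and 2 lower in GFP-. Over all members, 73.7% were called higher and 7.11% lower in GFP+, and 68.5% and 9.30% in GFP-. The GFP- median of the cluster was 0.26, and -0.09 with size factors from epithelial markers. That scaling gave -0.28 over the other autosomal genes. Cxcl15 (chr5:90794534-90803067) stood at 0.345, 0.464, 0.390 and 0.388 CPM in the AKVPL GFP+ libraries and 78.3, 80.1, 53.3 and 66.8 CPM in the AKVPSL GFP+ libraries. In GFP- cells it stood at 0.142, 0.478, 0.387 and 1.10 CPM in AKVPL and 62.1, 66.9, 35.8 and 32.2 CPM in AKVPSL. It was close to 0 in every AKVPL library, and its differences of 7.44 ± 0.37 and 6.77 ± 0.38 were the largest in this direction in either sort. Cxcl1, a neutrophil attractant, stood at 50.8 ± 17.9 CPM (SD) in AKVPL GFP+ and 144 ± 41.0 CPM in AKVPSL GFP+, with no overlap, while Cxcl2 beside it differed by -0.79 ± 0.27 and -1.02 ± 0.27. Cxcl10, an interferon-induced chemokine, had overlapping groups and differed by -0.01 ± 0.43 and 0.11 ± 0.43.

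The interferon-induced Gbp and Oas members stood against the chromosome, unlike the interferon-induced Cxcl10 above. Of the 14 Gbp and Oas genes listed, 7 passed the CPM limit, and these 7 were called lower in AKVPSL in both sorts, with median differences of -4.31 and -2.67. Of the other autosomal genes 26.0% were called lower in GFP+ and 27.8% in GFP-. Oas2 (chr5:120730333-120749886), one of the enzymes that make 2′-5′ oligoadenylates in response to double-stranded RNA, stood at 278, 202, 281 and 249 CPM in the AKVPL GFP+ libraries and 2.33, 2.88, 2.10 and 3.82 CPM in the AKVPSL GFP+ libraries. In GFP- cells it stood at 121, 81.6, 114 and 102 CPM in AKVPL and 4.88, 8.16, 8.33 and 4.31 CPM in AKVPSL. The lowest AKVPL library was far above the highest AKVPSL library in either sort, with differences of -6.52 ± 0.25 and -4.04 ± 0.23. Its neighbour Oas3 (chr5:120753098-120777684), whose upstream sequence holds the interferon element, differed by -4.61 ± 0.19 and -2.67 ± 0.18. Oasl2, whose upstream sequence held no match to it, differed by -4.31 ± 0.20 and -2.65 ± 0.19. Oasl1, beside it, differed by -1.59 ± 0.21 and -1.35 ± 0.21. Oas1a (-4.10 ± 0.24 and -2.72 ± 0.22) and Oas1g (-4.63 ± 0.20 and -3.05 ± 0.18) belong to a family of near-identical copies, whose unique reads may be split between them.

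Other members with the largest differences lay in separate stretches of the chromosome. Afp (chr5:90490714-90508907) and Alb (chr5:90460870-90476602), neighbouring genes for alpha-fetoprotein and albumin, the main serum proteins of fetal and adult liver, were both higher. Alb stood at 30.9, 28.7, 46.7 and 35.5 CPM in the AKVPL GFP+ libraries and 539, 525, 667 and 526 CPM in the AKVPSL GFP+ libraries, and differed by 3.99 ± 0.18 in GFP+ and 2.32 ± 0.17 in GFP-. Afp differed by 4.10 ± 0.30 and 5.51 ± 0.33, the latter 6.19 without AKVPL GFP- replicate 2. No library overlapped between the genotypes for either gene. Otop1, a proton channel, was higher by 5.20 ± 0.39 and 4.08 ± 0.37. Fzd9, a WNT receptor, was higher by 3.47 ± 0.25 and 3.36 ± 0.26, and Prkg2, a cGMP-dependent kinase of the gut epithelium, by 3.38 ± 0.15 and 3.71 ± 0.15.

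Gnat3 and Cacna2d1 lay in bin 2, which has few members, and went opposite ways. Cacna2d1, an accessory subunit of calcium channels, was higher by 5.21 ± 0.19 and 2.55 ± 0.17. Gnat3 (chr5:17962570-18019668), the taste receptor G protein that tuft cells carry, stood at 30.3, 20.8, 48.6 and 27.9 CPM in the AKVPL GFP+ libraries and 0.173, 0.0335, 0.899 and 0.575 CPM in the AKVPSL GFP+ libraries. In GFP- cells it stood at 138, 116, 149 and 184 CPM in AKVPL and 1.18, 0.763, 0.709 and 0.927 CPM in AKVPSL. All AKVPSL libraries were at or near 1 CPM or below it, and the differences were -6.30 ± 0.45 (-7.05 without AKVPSL GFP+ replicate 3) and -7.32 ± 0.43. Tfr2, a transferrin receptor that senses iron, was lower by a difference of -5.20 ± 0.32 in GFP+ and -5.34 ± 0.35 in GFP-. Msi1, the RNA-binding protein Musashi, had -4.08 ± 0.23 and -4.15 ± 0.24. Cnpy1 had -3.87 ± 0.52 in GFP+ and -5.76 ± 0.54 in GFP-. Without replicate 3 of the AKVPSL group of the same sort these became -4.95 and -6.35. Sgsm1 had -3.69 ± 0.15 and -5.20 ± 0.18, and Tmem150c -5.06 ± 0.23 and -3.50 ± 0.21.

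The sort contrasts were not used to choose the chromosome and were tested. In AKVPL, 224 members rose and 82 fell from GFP- to GFP+ cells, 306 of 731 or 41.9%. Over all genes tested 39.1% passed, and over the other autosomal genes with 8 CPM or more 43.8% (31.1% rose and 12.7% fell), a share near that of the members. In AKVPSL, 225 rose and 170 fell, 395 members or 54.0%, against 47.0% of all genes and 52.3% of the other autosomal genes (28.6% rose and 23.7% fell). The balance of the AKVPSL calls rests on single libraries: 158 rose and 193 fell without GFP+ replicate 1, 167 and 185 without GFP- replicate 1, and 184 and 200 without GFP- replicate 4. The split of the AKVPL calls into higher and lower rests on the scaling. It was 224 and 82 with TMM, 132 and 110 with DESeq2 size factors, 144 and 102 with library totals, and 26 and 269 with size factors from epithelial marker genes. The last of these moved the median of the other autosomal genes by -0.39 in this contrast. The median of the members stayed within 0.01 of that of the other autosomal genes under each scaling.

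The 5 members with the largest falls in GFP+ cells were Igfbp7, Sparcl1, Kdr, Tmem119 and Emilin1 in AKVPL, and Igfbp7, Sparcl1, Cmklr1, Selplg and Kdr in AKVPSL. Igfbp7 (chr5:77349240-77408045), an insulin-like growth factor binding protein of vessels and stroma, stood at 33.5, 20.8, 52.4 and 35.1 CPM in the AKVPL GFP+ libraries and 714, 453, 729 and 386 CPM in the AKVPL GFP- libraries. In AKVPSL it stood at 11.1, 29.0, 11.2 and 33.5 CPM in GFP+ and 243, 257, 122 and 136 CPM in GFP-. Every GFP+ library lay below every GFP- library, and the gene fell in both genotypes. Its log2 change was -4.01 ± 0.46 in AKVPL and -3.17 ± 0.44 in AKVPSL (edgeR adjusted p = 1.74e-05 and 8.88e-05). Sparcl1, a matricellular protein, fell in both genotypes (-3.78 ± 0.49 in AKVPL and -3.03 ± 0.47 in AKVPSL, edgeR adjusted p = 4.74e-05 and 0.000202). Kdr, the VEGF receptor of endothelial cells and one of the endothelial markers, fell in both genotypes (-3.53 ± 0.67 in AKVPL and -2.94 ± 0.67 in AKVPSL, edgeR adjusted p = 0.000936 and 0.00287). Selplg, the selectin ligand of leukocytes, and Emilin1, an elastic fibre protein, fell in both genotypes too. The log2 change of Selplg was -2.74 ± 0.44 and -2.94 ± 0.47, and that of Emilin1 -3.17 ± 0.29 and -2.08 ± 0.28 (largest edgeR adjusted p of the 4 tests, 0.000239).

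Markers of fibroblasts, endothelial cells and leukocytes moved with the sort. In AKVPL GFP+ against GFP-, 8 of 10 fibroblast, 8 of 9 endothelial and 10 of 10 leukocyte markers fell and none rose. In AKVPSL, 10, 7 and 10 fell and none rose. Of the other autosomal genes with 8 CPM or more, 12.7% fell in AKVPL and 23.7% in AKVPSL. Epithelial markers, of which 13 were tested, did not move alike: 7 rose and none fell in AKVPL, while 2 rose and 4 fell in AKVPSL. The part of the fibroblast, endothelial and leukocyte markers in the falls of the members named above was not tested.

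Prom1, Ncapg, Kntc1 and Ppargc1a rose in GFP+ cells of both genotypes. Prom1 (chr5:43993621-44102047), the membrane glycoprotein prominin 1 of crypt cells, stood at 991, 963, 893 and 897 CPM in AKVPL GFP+ and at 509, 443, 489.6 and 458 CPM in AKVPL GFP-. It averaged 1156 ± 115 CPM (SD) in AKVPSL GFP+ and 552 ± 58.4 CPM in AKVPSL GFP-. The sorts did not overlap in either genotype, and it rose by 0.98 ± 0.10 in AKVPL and by 1.07 ± 0.10 in AKVPSL (edgeR adjusted p = 9.78e-07 and 5.36e-07). Ncapg, a condensin subunit that compacts mitotic chromosomes, rose by 1.47 ± 0.16 in AKVPL and 0.45 ± 0.15 in AKVPSL (edgeR adjusted p = 1.63e-06 and 0.0194). Kntc1, a kinetochore checkpoint protein, rose by 1.42 ± 0.16 and 0.94 ± 0.15 (edgeR adjusted p = 3.07e-06 and 0.000109). Ppargc1a, a coactivator of mitochondrial genes, rose by 0.76 ± 0.17 and 1.59 ± 0.17 (edgeR adjusted p = 0.00166 and 2.12e-06). In AKVPSL the rise of Ncapg was no longer called without AKVPSL GFP- replicate 3 or 4 or AKVPSL GFP+ replicate 1, or with only the compared groups in the model (0.32 to 0.41). In AKVPL the rise of Ppargc1a was no longer called with size factors from epithelial markers (0.35).

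By list, 16 of the 21 cell cycle members rose in AKVPL GFP+ cells and none fell, with a median of 0.53 against 0.16 over all members. Of the other autosomal genes 31.1% rose in AKVPL and 28.6% in AKVPSL. With size factors from epithelial markers 8 rose and 1 fell. In AKVPSL 7 rose, a share near that background, and 1 fell, with a median of 0.17 against 0.05. The member that fell was Ran (-0.50 ± 0.11, edgeR adjusted p = 0.000947). The 24 chromatin and transcription members showed 7 rises and 1 fall in AKVPL and 15 and 4 in AKVPSL. The AKVPL share of rises was near that background, and the AKVPL count became 0 and 7 with epithelial size factors. Of the 7 chemokines, none rose, 3 fell in AKVPL and 4 in AKVPSL, against falls of 12.7% and 23.7% of the other autosomal genes. Cxcl2 fell in both genotypes (-2.35 ± 0.28 in AKVPL and -2.12 ± 0.28 in AKVPSL, edgeR adjusted p = 1.67e-05 and 4.2e-05), beside the lower leukocyte markers of the same libraries.

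Sort effects of some members differed between the genotypes. The difference of sort effects passed in 206 members, 28.2%, against 20.8% of all genes. This share was near the 26.3% of the other autosomal genes (8.20% above and 18.1% below 0). A call need not mean a change of direction, as Ppargc1a rose in both genotypes (0.76 and 1.59). Members called above and below 0 numbered 67 and 139 with TMM, 100 and 100 with DESeq2 size factors, 86 and 106 with library totals, and 257 and 29 with epithelial size factors. This difference equals that of the genotype differences in the 2 sorts and is given as a description.

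Kcnh2 (chr5:24319589-24351684), the hERG potassium channel, was chosen after its values were seen. It stood at 28.7, 23.5, 37.1 and 34.2 CPM in the AKVPL GFP+ libraries and 73.9, 65.7, 75.8 and 90.6 CPM in the AKVPL GFP- libraries. In AKVPSL it stood at 57.1, 41.8, 45.9 and 45.8 CPM in GFP+ and 22.9, 21.9, 17.3 and 19.8 CPM in GFP-. The sorts did not overlap in either genotype and changed order between them. Kcnh2 fell from GFP- to GFP+ in AKVPL (-1.31 ± 0.14) and rose in AKVPSL by 1.22 ± 0.14 (edgeR adjusted p = 2.18e-06 and 5.67e-06). Oas2 went the other way, with a rise of 1.27 ± 0.20 in AKVPL and a fall in AKVPSL of -1.21 ± 0.23 (edgeR adjusted p = 9.58e-05 and 0.000572). Oas3 did the same, with 0.91 ± 0.16 and -1.03 ± 0.19 (edgeR adjusted p = 0.000266 and 0.000295). Sorcs2, a sorting receptor, was at -0.34 ± 0.14 in AKVPL (edgeR adjusted p = 0.0534) and rose by 1.53 ± 0.14 in AKVPSL (edgeR adjusted p = 5.1e-07).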

How the data were processed

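RNA was isolated with a column kit from sorted cells and sequenced in 16 libraries, 4 for each of 4 groups. Each deposited count is the number of uniquely aligned reads on a gene model, per the file headers, and the RPKM beside it, which per the file headers the authors scaled with size factors, is a length-normalised level. The aligner GSNAP and the build GRCm38 are given by the submitters' processing notes, and use of strand in counting is not stated there. Gene IDs were matched to the RefSeq table of GRCm38.p6 (31049 of 36528). Counts were tested with edgeR 4.0.16 (R 4.3.3): filterByExpr left 18072 genes, libraries were scaled by TMM, and 1 quasi-likelihood model with robust dispersions held all 16 libraries (12 residual degrees of freedom). P-values are two-sided, with Benjamini-Hochberg adjustment over all genes of a contrast and a threshold of 0.05. An SE is the absolute log2 fold change divided by the square root of F. The shift, the library index and the limit of 8 CPM used library totals, with a pseudocount of 0.5. DESeq2 1.42.0, limma 3.58.1 on log2(RPKM + 1), other scalings, no filter, a replicate block and leaving out each library were the alternatives. The code was tested on simulated data.

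Genes are named by rank of difference (8 each way in each sort for the genotypes, 5 each way for the sorts, groups not overlapping), by mean CPM in each list (up to 6), or as nearest to a bin's median or to the CPM limit. Members and lists were chosen with earlier results of these data known. Replicates differed by more than sampling noise (24 pairs, chi-square over its degrees of freedom 9.70 to 80.0). In AKVPL, GFP+ and GFP- libraries with the same replicate number deviated from their group means together. The correlations over genes were 0.15 to 0.34, above 0.1 in all 4. Across the AKVPSL sorts (0.07 to 0.46) and across genotypes (lowest -0.09) this did not hold for every pair. Values of similar size also arose across genotypes, up to 0.31 in GFP+ and 0.26 in GFP-. Whether the numbers pair the sorts can therefore not be read from these correlations, and no label says so.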

Additional observations from a re-analysis of the deposited data

Results flagged for a closer look

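In 12 of 296 groups of 4 libraries (74 genes), 1 library lay far from the other 3. Chance gives about 1 in 20 groups. The libraries that stood high were AKVPL GFP- replicate 2 for Afp (4.26 CPM), AKVPSL GFP+ replicate 3 for Alb (667 CPM) and Oasl1 (23.5 CPM), AKVPSL GFP+ replicate 4 for Anapc4 (131 CPM) and AKVPSL GFP- replicate 4 for Baz1b (232 CPM). Further high values were those of Cdx2 in AKVPL GFP+ replicate 2 (1.89 CPM) and of Cnpy1 in AKVPL GFP- replicate 4 (49.8 CPM) and AKVPSL GFP- replicate 3 (1.46 CPM). The low values were those of Oas3 in AKVPL GFP+ replicate 2 (36.0 CPM), Ppargc1a in AKVPL GFP+ replicate 4 (24.5 CPM), and Ran (140.2 CPM) and Wdr1 (391 CPM) in AKVPSL GFP- replicate 2.

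The sort effect (GFP+ minus GFP-, log2) differed between the genotypes in 24 of the printed genes by edgeR's interaction test (Benjamini-Hochberg adjusted). This equals the difference of the genotype differences in the 2 sorts, on which the chromosome was chosen, so it is a description. Given as AKVPSL minus AKVPL, 16 of them stayed past the threshold in all 24 alternatives. Among these, Cacna2d1 differed by 2.66, Kcnh2 by 2.53, Sorcs2 by 1.88, Slit2 by 1.72, Alb by 1.67, Tbx3 by 1.61 and Ppargc1a by 0.83. Those with values below 0 were Oas2 (-2.48), Oas3 (-1.94), Oasl2 (-1.67), Oas1g (-1.58), Tmem150c (-1.56), Oas1a (-1.38), Lrrc66 (-1.31), Ncapg (-1.02) and Btc (-0.99).

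The other 8 lost the call in at least 1 alternative. Sgsm1 (1.51) lost it in 1, with limma on RPKM, and Ran (-0.72) in 1, with size factors from epithelial markers. Afp (-1.41) and Anapc4 (-0.41) lost it in 6 each, Gtf2i (0.48) in 8, Cldn3 (-0.52) in 12, Rfc2 (-0.46) in 18 and Zan (-0.74) in 19 of 24. Anapc4 changed sign in 1 of them (0.01, with epithelial size factors). Fibroblast and leukocyte markers differed between the GFP- groups, and their part in these differences was not tested.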

How the results depend on the processing

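Of the recomputed main results, 121 stayed within the replicate spread, or for counts of calls within 1.5 times of the total, and 9 moved. The rule for counts ignored direction. The AKVPL sort count thus stayed, although 224 higher and 82 lower became 26 and 269 with size factors from epithelial markers. The interaction count stayed too, although 67 above and 139 below 0 became 257 and 29. The GFP+ shift of 0.55 became 0.53 over genes within 0.5 of 0 in both sort contrasts, 0.59 against autosomes other than 5, 12, 15 and 18, and 0.57 as a mean over members. The GFP- shift of 0.54 became 0.58 against those autosomes. The lowest bin shift was 0.30 (GFP+) and 0.15 (GFP-) with 5 Mb bins, 0.39 (GFP-) with 20 Mb bins, and 0.42 and 0.40 over genes flat between the sorts. Size factors from epithelial markers reversed Gtf2i (-0.13) and Wdr1 (-0.063) between genotypes in GFP-, and Cdk6 (-0.095) and Anapc5 (-0.11) between the AKVPL sorts. They shifted the median of the other autosomal genes by -0.38 in GFP- and -0.39 in the AKVPL sorts. With each library left out in turn, members called ranged from 242 to 297 for the AKVPL sorts, 331 to 384 for the AKVPSL sorts, 565 to 581 and 544 to 576 for the genotypes in GFP+ and GFP-, and 158 to 253 for the interaction of sort and genotype. The shift stayed at 0.54 to 0.56 in GFP+ and 0.53 to 0.55 in GFP-.

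With the replicate number as a block, 323 members were called for the AKVPL sorts, 416 for the AKVPSL sorts, 603 and 577 for the genotypes in GFP+ and GFP-, and 235 for the interaction. A block nested within genotype gave 347, 433 and 255 for the sorts and their difference. The nested block and the mean over members were chosen after seeing the data. Among printed genes, the sort call was lost in 40 recomputations and gained in 22, and 1092 stayed on the same side of the threshold. Oasl2 in AKVPL lost its call in 9 alternatives and Anapc5 and Cdk6 in 8 each, while Sorcs2 in AKVPL gained one in 9. Actb in AKVPL lost its call without GFP+ replicate 1 or 4 or GFP- replicate 2 or 3 (-0.40 to -0.33). Of the genotype differences of printed genes, 41 moved beyond the spread with limma on log2(RPKM + 1), such as Cacna2d1 (5.21 to 2.52), Sgsm1 (-3.69 to -1.67) and Cnpy1 (-3.87 to -1.11) in GFP+, 36 with size factors from epithelial markers and 3 without 1 library. The log2(RPKM + 1) scale understates changes of low genes. The fall of Tmem119 in AKVPSL was -2.90, and -3.49 without GFP+ replicate 4. The causes were not tested. Depth limits members below about 1 CPM in a group, such as Gnat3 and Cnpy1 in AKVPSL.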
